A study of Mus musculus with 4 samples.

Results

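Ribosome biogenesis and nucleolar genes were followed in NOTCH1-driven mammary tumor cells before and after the transgene was switched off. The list held 40 genes of 18193 with a probe set of a single gene symbol. The 40 were chosen by their function and not by a threshold on these values, but with earlier results of these data known. Each was represented by its probe set of highest mean log2 value, and all 40 were measured and tested. The cells were lines 8534 and 8542, established from primary mammary tumors of 2 different female MMTV-tTA/TOP-ICN1 mice on a mixed FVB/N and B6 background. In these mice the MMTV promoter drives the tetracycline transactivator, which in turn switches on human ICN1, the intracellular and always active piece of NOTCH1, and doxycycline silences it. Both the untreated and the treated cells carried both transgenes, so that the untreated cells (ICN1 on) are the overexpressing state and not a normal mammary cell. Each line was left untreated or was given 2 µg/ml doxycycline for 24 hours (ICN1 off), with 1 Affymetrix array per line and condition, 4 arrays in all. No array came from doxycycline-treated cells without the transgenes, so effects of the drug itself and of ICN1 loss cannot be told apart.

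Ribosomes are built in the nucleolus. RNA polymerase I transcribes the ribosomal RNA precursor, box C/D and box H/ACA small nucleolar ribonucleoproteins (snoRNPs) guide its methylation and pseudouridylation, and successive sets of assembly factors fold, cut and export the small and the large subunit. Growing and tumor cells make ribosomes at a high rate, and the transcription factor MYC is a known activator of many of these genes.

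The values were log2 MAS5 signals, with trimmed means of 97.3 to 101 units on the 4 arrays. A change is the doxycycline value minus the untreated value in the same line. The precision of every value is limited by the number of arrays, since the cell line is the only replicate (n = 2 lines), and in RNA from a whole culture fewer cells that express a gene and less RNA per cell cannot be told apart. The NOTCH-induced repressor gene Hey1 had signals of 1138 and 762 units in untreated 8534 and 8542 cells and 96.4 and 101 units in the treated cells. All 5 luminal markers had signals of 1431 units or more on every array, of which Krt8 and Krt18 rose (limma adjusted p = 0.0295 and 0.0163), Krt19 fell (1.76-fold and 1.90-fold, limma adjusted p = 0.003) and Epcam and Cdh1 were not called. Summed signals of 4 leukocyte markers lay between 58.4 and 85.2 units, and Ptprc, which defines leukocytes, was at or below 7.2 units on every array. The summed signals of 4 fibroblast markers were 481 and 700 units before and after doxycycline in line 8534 and 127 and 119 units in line 8542, those of 4 endothelial markers 246, 106, 127 and 136 units in the same order, and those of 4 basal markers 4451, 7504, 188 and 236 units. The sums hide markers that moved in opposite directions. In line 8534, Acta2 went from 3012 to 6588 units and Trp63 from 7.53 to 17.4 units. Krt14 went there from 1379 to 869 units and Krt5 from 52.9 to 28.9 units. Of the endothelial markers only Tek was called, lower from 130 to 18.3 units and from 20 to 7.69 units (limma adjusted p = 0.0303). The part of these markers in the results was not tested.

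After doxycycline, most ribosome biogenesis genes were lower in both lines, by a modest amount. At the median a member was 1.35-fold lower in line 8534 (log2 change -0.43) and 1.70-fold lower in line 8542 (log2 change -0.76), whereas the median of all genes changed by 0.01 and 0.00. Of the 40 members 17 fell and none rose in limma, in which 6.95% of the 15070 genes tested fell and 4.76% rose (adjusted p under 0.05 over all 33778 probe sets tested). Beyond those called, the direction was shared. The signal was lower in both lines for 35 of the 40, against 33.3% of tested genes, and both treated arrays lay below both untreated arrays for 31, against 23.1%. Bop1 alone was higher in both lines.

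The size of the change differed by role. Of box C/D proteins outside that group, Rrp9, which joins 1 kind of particle, is listed under small subunit assembly and was not called. Snu13 had no probe set of a single gene symbol. With the probe sets used, all 3 genes of the box C/D group were down more than 2-fold in each line. Of the remaining 37 members only Dkc1, of the box H/ACA group, did so. This gave 4 of 40 members past the study's own criterion of a change over 2-fold in both lines, against 4.18% of tested genes (2.33% in the upward direction, with no member). Nop58 passed narrowly, at 2.02-fold and 2.03-fold, and not with a pseudocount. The other probe set of Fbl did not pass (log2 changes of -0.57 and -0.91), whereas the second probe sets of Nolc1 and Tcof1 did. Median mean log2 changes were -1.36 for box C/D, -0.92 for box H/ACA, -0.72 for RNA polymerase I, -0.59 for general nucleolar proteins, -0.58 for large subunit assembly and -0.43 for small subunit assembly. These are descriptions of groups of 3 to 13 genes, and differences between the groups were not tested. The calls rest on the intensity trend in the variance model and on the pairing by line, since no member passed without the trend (lowest adjusted p = 0.229) or without the line block (lowest adjusted p = 0.0881), with 16 of 40 at an unadjusted p under 0.05 in each. Fits with any 1 array left out also lacked the line block, so they cannot show whether the calls depend on a single array.

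**Figure D1:**
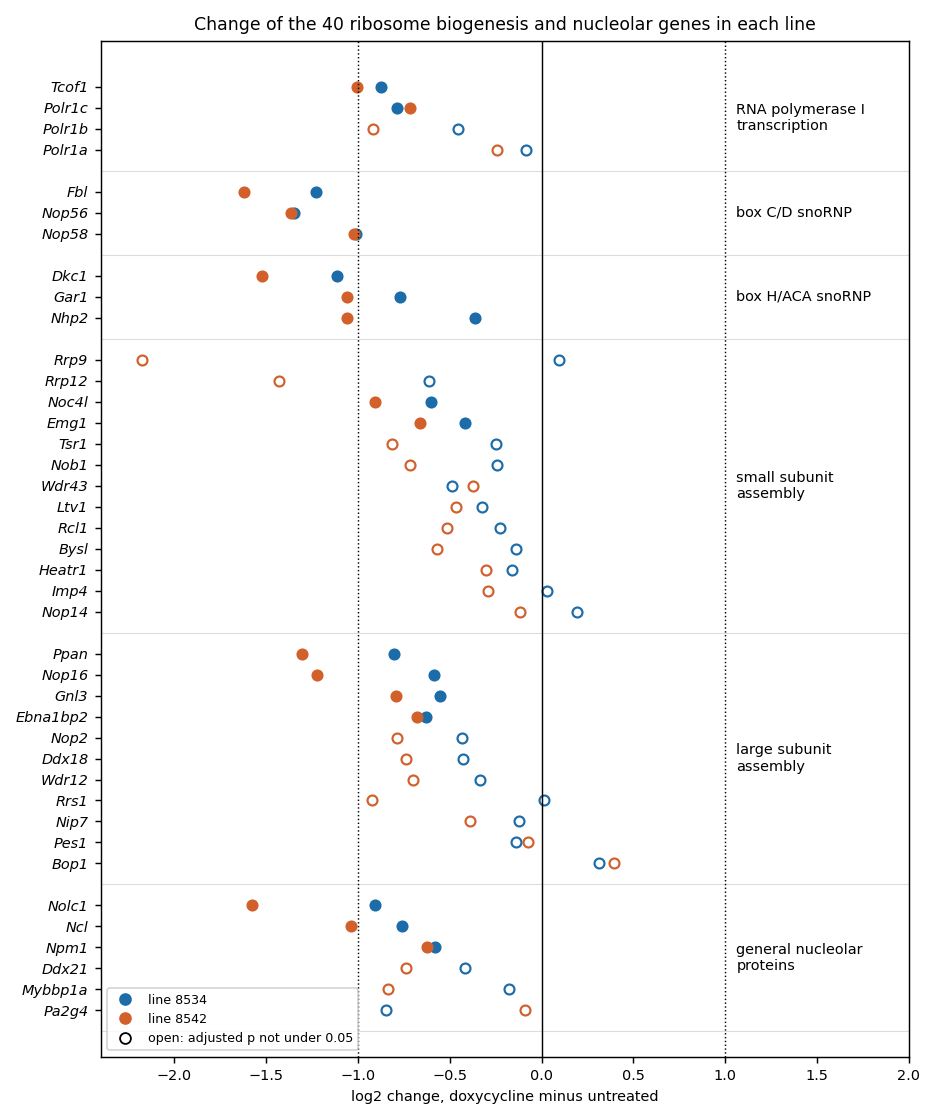
Log2 change (doxycycline minus untreated) of each of the 40 members, on the horizontal axis, with 1 point per cell line and genes grouped by role. Points are filled where limma called the gene, and dotted lines stand at a 2-fold change. Fbl, Nop56, Nop58 and Dkc1 lie at or beyond the lower dotted line in both lines, and only Bop1 lies to the right of 0 in both.

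Promoter sequence was available for 34 of the 40 members from RefSeq (GRCm38.p6), as windows of 300 bases from 250 bases before to 50 after a gene's start. Fbl, Npm1, Tcof1, Rrs1, Rrp12 and Bop1 had no entry. The palindromic E-box CACGTG, to which MYC and its partner MAX bind, stood in a window of 7 of 34 members (20.6%), of 10.7% of tested genes with a window, and in 7.15% of all 32851 windows. None of those 7, Imp4, Nop2, Ltv1, Pes1, Mybbp1a, Tsr1 and Wdr43, was called lower by the probe set used, against 14 of the 27 without it. The median mean log2 changes were -0.43 and -0.68, and neither difference was tested. Of all tested genes 6.95% were called lower, a share that was not split by the motif. Other E-box forms and sequence outside the windows were not searched. The other probe set of Mybbp1a was called lower (limma adjusted p = 0.0155). The motif CCGGAA, the core bound by ETS family factors, was searched on both strands after the windows had been read and shares no bases with CACGTG in the stretches below. It stood in windows of 16 members (47.1%), of 26.9% of tested genes and in 14.9% of all windows. Of the 14 members called lower that had a window 8 held it. The median mean log2 changes were -0.63 with CCGGAA and -0.55 without it, a difference that was not tested. A match is a stretch of letters, and no binding was measured. The 150 bases before the start are shown for 4 snoRNP genes that fell, and for Nop2 and Imp4, whose E-box lies in this stretch. Capitals mark CACGTG, and CCGGAA or its reverse complement TTCCGG.
Nop56 (chr2:130274262-130274411, plus strand): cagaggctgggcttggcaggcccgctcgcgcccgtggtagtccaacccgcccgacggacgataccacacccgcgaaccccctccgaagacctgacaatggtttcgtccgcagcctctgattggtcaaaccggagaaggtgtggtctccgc
Nop58 (chr1:59684856-59685005, plus strand): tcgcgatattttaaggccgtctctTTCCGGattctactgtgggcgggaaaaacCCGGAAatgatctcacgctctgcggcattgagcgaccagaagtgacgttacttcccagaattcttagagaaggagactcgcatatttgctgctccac
Dkc1 (chrX:75095704-75095853, plus strand): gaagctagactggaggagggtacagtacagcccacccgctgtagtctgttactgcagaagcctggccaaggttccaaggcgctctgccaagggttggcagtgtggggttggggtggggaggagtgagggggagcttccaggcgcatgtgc
Gar1 (chr3:129831397-129831546, minus strand): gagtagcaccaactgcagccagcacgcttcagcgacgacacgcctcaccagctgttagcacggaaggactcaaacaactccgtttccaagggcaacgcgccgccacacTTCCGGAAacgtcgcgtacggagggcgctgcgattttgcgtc
Nop2 (chr6:125131733-125131882, plus strand): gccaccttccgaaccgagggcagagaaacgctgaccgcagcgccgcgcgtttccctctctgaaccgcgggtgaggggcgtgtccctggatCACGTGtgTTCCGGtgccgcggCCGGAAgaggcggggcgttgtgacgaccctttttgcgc
Imp4 (chr1:34439679-34439828, plus strand): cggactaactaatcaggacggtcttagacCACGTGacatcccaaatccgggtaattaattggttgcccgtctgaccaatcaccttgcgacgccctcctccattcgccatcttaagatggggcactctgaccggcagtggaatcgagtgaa
Nop58 held CCGGAA or its complement at 2 places and Gar1 at 1, whereas Nop56 and Dkc1, which fell by more than either, held neither motif here. Nop2 held the E-box and CCGGAA, and Imp4 the E-box.

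Of the roles, the box C/D group had the most negative median with the probe sets used. With the second probe set of each gene that has several its median was -1.02, and that of the box H/ACA group was -1.07. Fbl encodes fibrillarin, the methyltransferase of the box C/D snoRNP. Line 8534 gave 1365 units before and 582 units after doxycycline, and line 8542 gave 1207 and 392 units. Fbl was 2.35-fold and 3.08-fold lower, or -1.43 ± 0.28 in mean log2 change (SD, n = 2 lines), with a limma adjusted p of 0.00152. Nop56 and Nop58 are the paired scaffold proteins of the same particle. Nop56 had signals of 603 and 237 units before and after doxycycline in line 8534 and 510 and 198 units in line 8542, 2.54-fold and 2.58-fold lower (limma adjusted p = 0.00169). Nop58 went from 199 to 98.6 units and from 298 to 147 units, 2.02-fold and 2.03-fold lower (limma adjusted p = 0.00902). For all 3 genes both treated arrays lay below both untreated arrays, and for Nop56 and Nop58 the fall differed between the lines by no more than 0.02 on the log2 scale (SD 0.01). The other probe set of Nop56 fell by 1.34 and 1.91 on the log2 scale in lines 8534 and 8542, so that this likeness holds for the probe set used. The size for Fbl also depends on the probe set. The probe set used is of the _s_at kind, whose probes are shared by several transcripts, and the other one also fell but by less, with log2 changes of -0.57 and -0.91 (limma adjusted p = 0.0153).

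All 3 genes of the box H/ACA group fell as well. Nop10, another protein of the H/ACA particle, is not in this group or its median and is listed with the other snoRNP genes. It was called lower too, but fell by less than these 3 (mean log2 change -0.50, limma adjusted p = 0.0317). Dkc1 encodes dyskerin, the pseudouridine synthase, which is also part of telomerase. Its signal was 422 and 195 units before and after doxycycline in line 8534 and 375 and 131 units in line 8542, 2.16-fold and 2.88-fold lower (mean log2 change -1.32 ± 0.29, SD, n = 2 lines; limma adjusted p = 0.0037), and both of its other probe sets fell too. Gar1, a structural protein of the particle, started at 722 and 725 units in the untreated lines and was at 422 and 348 units after treatment, 1.71-fold and 2.09-fold lower (limma adjusted p = 0.00712). Nhp2, which binds the guide RNA, was at 1369 and 1064 units in line 8534 and at 1445 and 693 units in line 8542. The fall of Nhp2 was 1.29-fold and 2.08-fold, and the gene passed narrowly (limma adjusted p = 0.0452), although its other probe set fell as well (limma adjusted p = 0.0253). Its call was lost with quantile normalization, without a filter on low values, and over the mean of its probe sets.

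**Figure D2:**
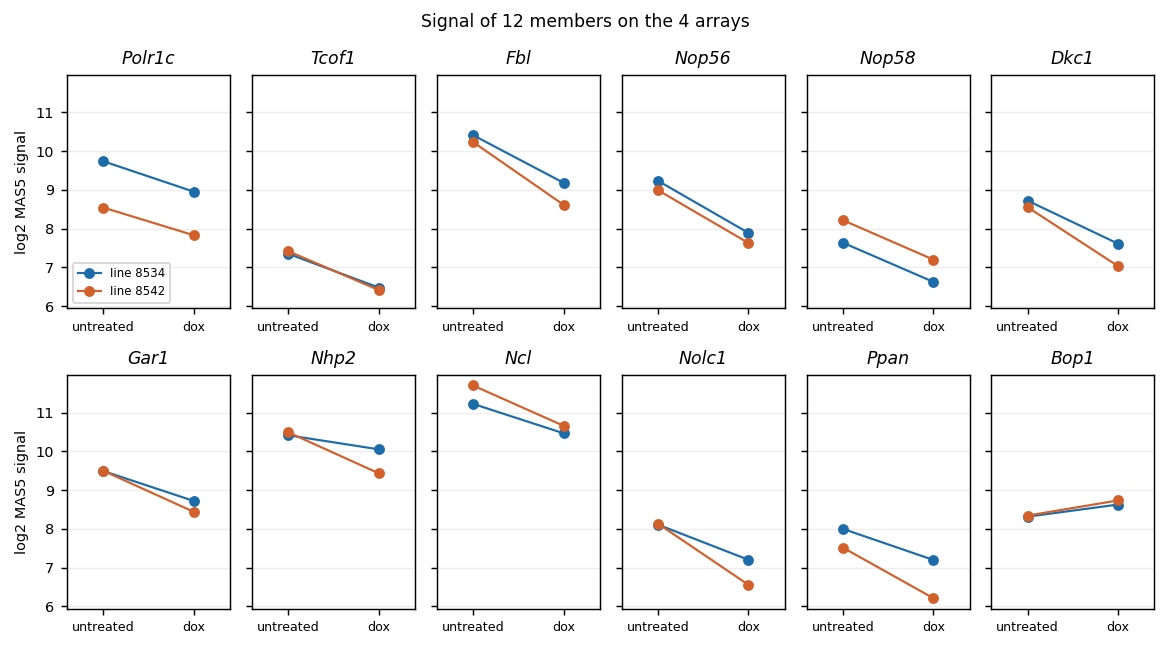
Log2 MAS5 signal of 12 members on untreated and doxycycline-treated (dox) arrays, 1 point per array, with lines joining the arrays of a cell line. Signals fell in both lines for 11 of the 12, in near parallel for Nop56 and Nop58 and more steeply in line 8542 for Nhp2 and Nolc1, and Bop1 was higher after treatment in both.

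Among the genes of RNA polymerase I transcription 2 of 4 fell. Polr1c, a subunit shared by RNA polymerases I and III, went from 855 to 496 units in line 8534 and 373 to 227 units in line 8542, 1.72-fold and 1.64-fold lower (mean log2 change -0.75 ± 0.05, SD, n = 2 lines; limma adjusted p = 0.013). The treated 8534 signal was above the untreated 8542 signal, so that the groups overlapped although the change within each line was alike. The other probe set of Polr1c was lower by 0.28 and 0.57 on the log2 scale and did not pass (limma adjusted p = 0.123). Tcof1 encodes treacle, a nucleolar phosphoprotein that promotes ribosomal DNA transcription. It went from 163 to 89.1 units and from 171 to 85.2 units, 1.83-fold and 2.01-fold lower (limma adjusted p = 0.0191), and both of its other probe sets fell. Polr1b, the second largest subunit of the polymerase, was at 145 and 106 units in line 8534 and at 129 and 68.5 units in line 8542 and did not pass (limma adjusted p = 0.0875). Polr1a, the largest subunit, was at 159, 150, 157 and 133 units in the same order, a mean log2 change of -0.16 (limma adjusted p = 0.639), and none of the 3 of its 5 probe sets that were tested was called.

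General nucleolar proteins, which bind pre-ribosomal RNA or act at several steps, included 3 that fell of 6. Ncl, which encodes nucleolin, was at 2403 and 1419 units before and after doxycycline in line 8534 and at 3339 and 1623 units in line 8542, 1.69-fold and 2.06-fold lower (limma adjusted p = 0.00423). Of its 4 other probe sets 3 fell, and the fourth changed by -0.89 (limma adjusted p = 0.0927). Npm1, the gene of the nucleolar chaperone nucleophosmin, had the highest signals of the list, from 5359 to 3581 units and from 4325 to 2805 units, 1.5-fold and 1.54-fold lower (limma adjusted p = 0.0102). Nolc1, a phosphoprotein that carries snoRNPs between Cajal bodies and the nucleolus, went from 277 to 147 units and from 281 to 94.1 units, 1.88-fold and 2.99-fold lower (limma adjusted p = 0.0102). All 3 of its probe sets fell, the one of lowest signal by 1.81 and 2.15 on the log2 scale. Ddx21, an RNA helicase, Mybbp1a, a regulator of ribosomal DNA transcription, and Pa2g4, a growth-regulated RNA-binding protein, did not pass by the probe set used (limma adjusted p = 0.0671, 0.136 and 0.183). Pa2g4 had signals of 894 and 496 units in line 8534 and 800 and 750 units in line 8542. However, 3 of its other 4 probe sets fell, with mean log2 changes from -0.92 to -1.26, as did the other one of Mybbp1a (-0.78, limma adjusted p = 0.0155).

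Of 11 genes of large subunit assembly 4 fell, Ppan, Nop16, Gnl3 and Ebna1bp2. Ppan, which acts in maturation of large subunit RNA, went from 256 to 147 units in line 8534 and 183 to 74.1 units in line 8542, 1.74-fold and 2.47-fold lower (mean log2 change -1.06 ± 0.36, SD, n = 2 lines; limma adjusted p = 0.0157). Nop16, an assembly factor, went from 371 to 247 units and from 388 to 166 units (1.5-fold and 2.33-fold lower, limma adjusted p = 0.0256). Its other probe set had signals between 1.82 and 19.1 units and did not pass (mean log2 change 1.61, limma adjusted p = 0.344). Gnl3, the nucleolar GTPase nucleostemin, fell from 752 to 512 units and from 564 to 325 units (limma adjusted p = 0.0216). Ebna1bp2 fell from 723 to 467 units and from 579 to 363 units (limma adjusted p = 0.0195).

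The PeBoW complex of Pes1, Bop1 and Wdr12, which processes large subunit RNA, held no gene that passed. Pes1 had signals of 205 and 187 units before and after doxycycline in line 8534 and 166 and 158 units in line 8542, a mean log2 change of -0.11 (limma adjusted p = 0.766), and its other probe set had log2 changes of -0.59 and -0.93 (limma adjusted p = 0.0975). Bop1 was at 319 and 396 units and at 325 and 426 units, 1.24-fold and 1.31-fold higher, with both treated arrays above both untreated arrays (limma adjusted p = 0.171), but its other probe set changed by 0.34 and -0.57 on the log2 scale. Wdr12 went from 181 to 144 units and from 239 to 147 units (mean log2 change -0.52, limma adjusted p = 0.124). The other members of this group were the methyltransferase Nop2, the helicase Ddx18, Rrs1 and Nip7. They had mean log2 changes between -0.61 and -0.26, with Ddx18 and Nop2 just above the threshold (limma adjusted p = 0.0545 and 0.0736).

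Small subunit assembly had the smallest share of called genes among the roles, 2 of 13. Noc4l went from 473 to 311 units in line 8534 and 372 to 198 units in line 8542, 1.52-fold and 1.88-fold lower (limma adjusted p = 0.0213). Its 3 other probe sets had mean log2 changes of -0.23, -0.82 and -0.99, of which the last passed (limma adjusted p = 0.0213). Emg1, a methyltransferase of small subunit RNA, went from 931 to 696 units and from 1054 to 666 units, 1.34-fold and 1.58-fold lower (limma adjusted p = 0.0384). That call was lost with quantile normalization, without a filter on low values and with the mean over the probe sets of each gene.

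Among the small subunit genes that did not pass, the lines differed most for Rrp9. Rrp9, a protein of the box C/D particle that directs early precursor cleavage, had the lowest mean log2 value of the list, with signals of 23.4 and 25 units before and after doxycycline in line 8534 and 57 and 12.6 units in line 8542 (mean log2 change -1.04 ± 1.61, SD, n = 2 lines; limma adjusted p = 0.326). Rrp12 was at 62.9 and 41.1 units and at 52.3 and 19.4 units, 1.53-fold and 2.69-fold lower (limma adjusted p = 0.0968). Tsr1, Nob1 and Ltv1, which act in late cytoplasmic steps, had mean log2 changes of -0.53, -0.48 and -0.40. The assembly factors Wdr43, Rcl1, Bysl and Heatr1 lay between -0.43 and -0.23. Imp4 and Nop14 had mean log2 changes of -0.13 and 0.04, and Nop14 was at 124 and 142 units in line 8534 and at 119 and 109 units in line 8542 (limma adjusted p = 0.942).

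The lines shared the direction for 36 of 40 members and differed in size. Of these members 35 were lower and 1 higher in both lines, against 33.3% and 34.2% of tested genes. The log2 change was more negative in line 8542 for 35 of 40 members, against 49.8% of tested genes, and 13 members were more than 2-fold lower in line 8542 but only 4 in line 8534, against 8.82% and 7.58% of tested genes. All 4 of the latter were among the 13. Over the 40 members the changes of the lines correlated with a Pearson r of 0.54. It was 0.52 over all genes tested and 0.73 over genes in the level range of the members. These are descriptions across genes that are not independent and that were measured on the same 4 arrays. Because each line had 1 array per condition, a difference between the lines in the response could not be tested. Pa2g4 was the member with the largest difference in the opposite sense, with log2 changes of -0.85 in line 8534 and -0.09 in line 8542, although its 3 called probe sets had more negative changes in line 8542.

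**Figure D3:**
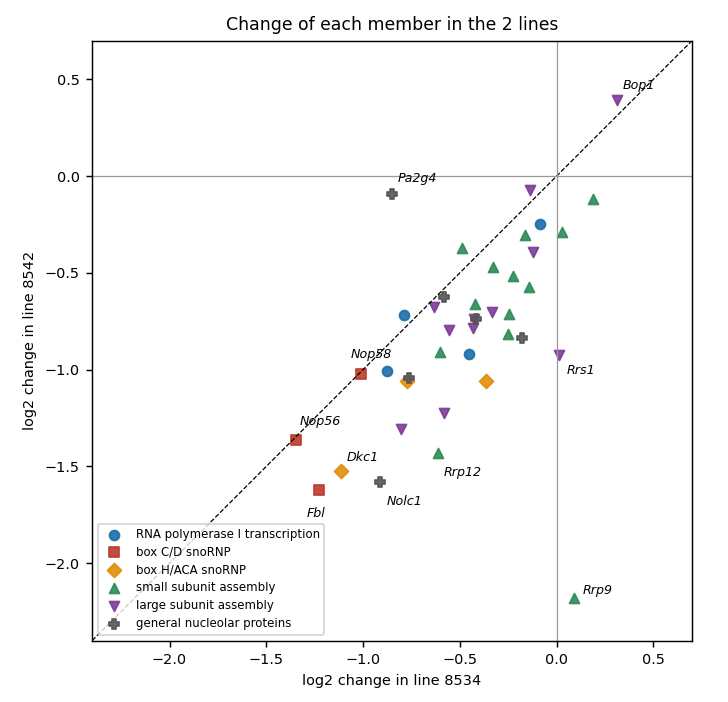
Log2 change (doxycycline minus untreated) of each member in line 8534 (horizontal) against line 8542 (vertical), 1 point per gene, with symbols for roles and a dashed line of equal change. Most points, 35 of 40, lie below the dashed line, Rrp9 lies at 0.09 and -2.18, and Pa2g4 lies above the line at -0.85 and -0.09.

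Other probe sets of the members gave a further reading of the same arrays. Of the 40 members 27 had several, and of the 46 probe sets not used 37 changed in the direction of the one used, 19 fell in limma and none rose, against 5.54% and 3.69% of all probe sets tested. The 9 that went the other way included 4 below the filter on low values and none that passed. Ddx18, Mybbp1a and Pa2g4 thus each had a called probe set outside the one used, whereas the called members Ncl, Noc4l, Polr1c, Ebna1bp2 and Nop16 each had at least 1 that was not called.

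**Figure D4:**
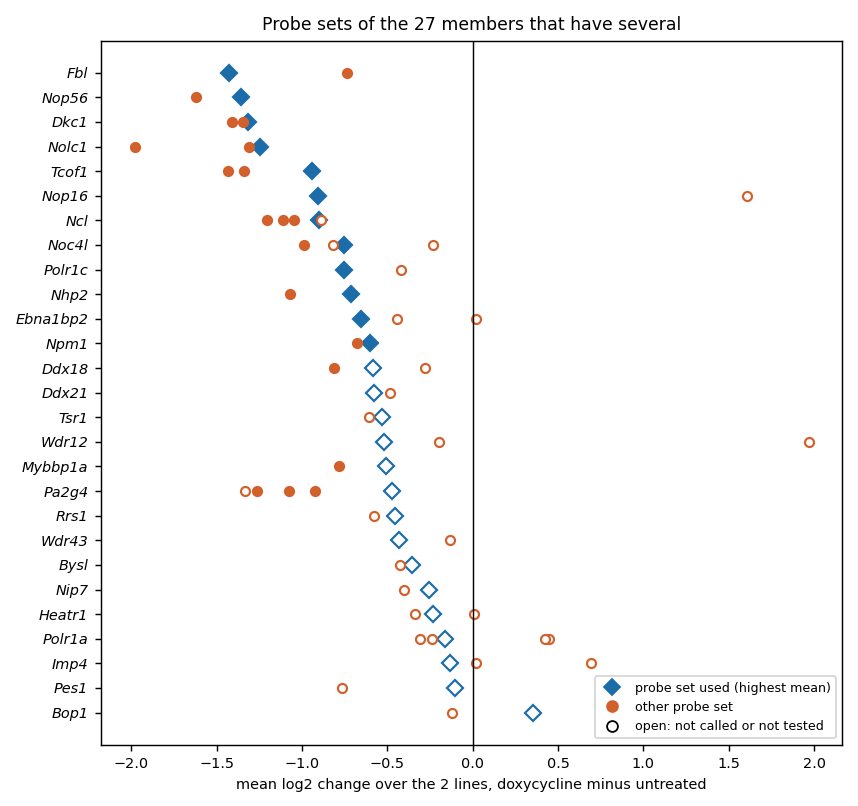
Mean log2 change over the 2 lines (horizontal) of every probe set of the 27 members that have several, with diamonds for the probe set used and circles for the others, filled where the limma adjusted p was under 0.05. All filled points lie left of 0, and the 2 circles farthest to the right, of Wdr12 and Nop16, have signals below 20 units on every array.

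Other genes of ribosome biogenesis, 125 that were not members, had smaller changes. A probe set was available for 123 and 122 were tested. Of these 14 fell and none rose, 11.5% of those tested against 6.95% of tested genes, and the median mean log2 change was -0.30, with 94 of 123 lower in both lines. The other snoRNP genes again had the largest share, with 5 called of 8. They were Naf1, an assembly factor of H/ACA particles, the AAA ATPases Ruvbl1 and Ruvbl2, Znhit3 and Nop10, named after their values were seen. Ruvbl2 went from 646 to 374 units and from 820 to 337 units in lines 8534 and 8542 (limma adjusted p = 0.0076), and Naf1 from 230 to 127 units and from 219 to 80.0 units (limma adjusted p = 0.0132). Genes past 2-fold in both lines were Exosc8 and Exosc5, subunits of the RNA exosome that trims ribosomal RNA precursors, and Nol9, a kinase of large subunit RNA processing. Exosc8 went from 858 to 316 units and from 728 to 193 units, 2.72-fold and 3.77-fold lower (limma adjusted p = 0.00136). Nol9 was 2.78-fold and 3.48-fold lower (limma adjusted p = 0.00167) and Exosc5 2.04-fold and 2.91-fold lower (limma adjusted p = 0.00408). Wdr46 was the 1 called gene of 43 in small subunit assembly, and 3 of 45 were called in large subunit assembly (Nol9, Nle1 and Rrp1b), 1 of 12 in RNA polymerase I transcription (Taf1d) and 4 of 14 in the exosome group (Exosc2, Exosc5, Exosc7 and Exosc8). The filter on low values and the normalization bear on this count, which was 9 with quantile normalization and 9 without a filter.

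The genes of the ribosomal proteins themselves had small changes. Of 79 genes of cytosolic ribosomal proteins 44 had a probe set with a single symbol and 43 were tested, of which 5 fell (Rpsa, Rpl8, Rpl12, Rpl14 and Rpl35, 11.6%, against 6.95% of tested genes) and none rose. Their median mean log2 change was -0.24, 40 of 44 were lower in both lines (33.3% of tested genes), and none was past 2-fold in both. The change was more negative in line 8542 for 11 of the 44, against 35 of the 40 ribosome biogenesis genes, a difference that was not tested. Of the 5 called, Rpl12 and Rpl14 were read from probe sets with signals of 118 to 232 and 66.8 to 207 units. Those of Rpsa, Rpl8 and Rpl35 were at 2752 units or more on every array. The count of 5 changed with the setting, to 10 with a filter at the median level, 2 with quantile normalization and 0 without the trend or the line block (2 and 9 at an unadjusted p under 0.05).

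**Figure D5:**
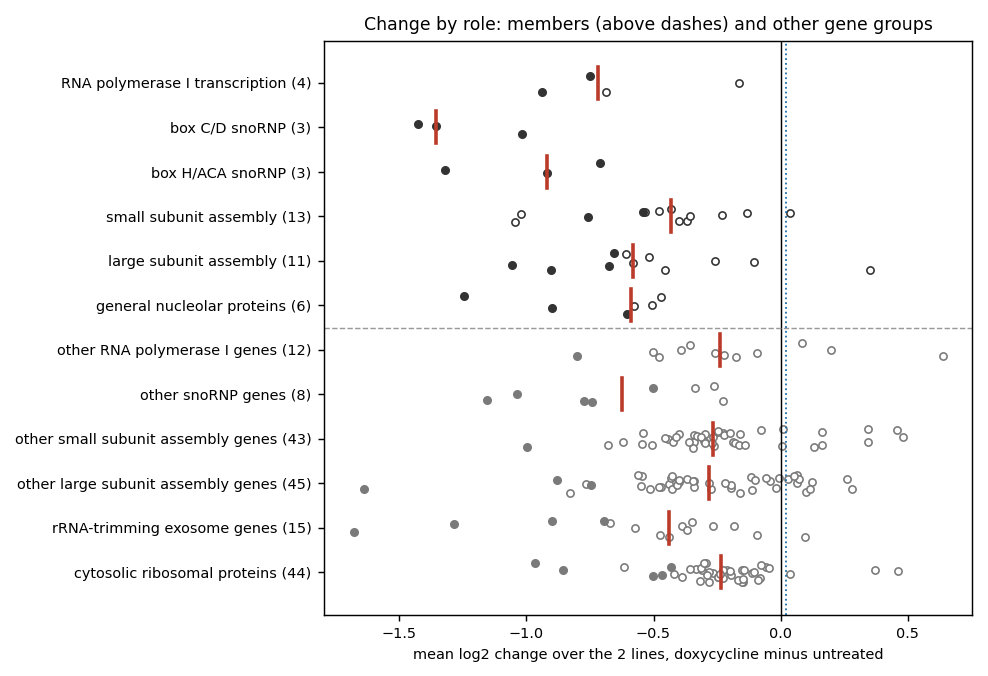
Mean log2 change over the 2 lines (horizontal) of every gene by role, 1 point per gene, with the number of genes in parentheses, members above the dashed line and other groups below it. Filled points were called lower by limma, red bars are group medians and the blue dotted line is the median of all genes. The medians of the members' groups run from -1.36 for box C/D to -0.43 for small subunit assembly, and that of the ribosomal proteins is -0.24.

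Myc, which encodes the activator named above, had signals of 289 and 137 units before and after doxycycline in line 8534 and 369 and 134 units in line 8542 (limma adjusted p = 0.00465). Its partner Max was at 79.6 and 109 units and at 75.6 and 147 units and did not pass (limma adjusted p = 0.0889), and neither did Mycn (65.9, 75.8, 137 and 127 units in the same order). The Mycl signals, 31.7, 85.4, 76.7 and 8.06 units, moved in opposite directions in the lines. Whether any of these had a part in the fall of ribosome biogenesis genes was not tested.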

How the data were processed

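Total RNA from lines 8534 and 8542, untreated or treated with doxycycline, was hybridized to Affymetrix mouse genome arrays, 1 per line and condition. The deposited values are log2 signals that the authors made with MAS5. Their base was read from the values, and for the software version and the scaling target the sources used here give nothing. Of 45101 probe sets 64 controls were left out. Of the rest, 34945 had 1 gene symbol in the platform annotation, 932 several and 9160 none, and only the first were named. Arrays were compared with no floor, pseudocount or further scaling.

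With limma 3.58.1 (R 4.3.3), line and treatment were fitted as terms with an intensity trend in eBayes, over the 33778 probe sets whose mean log2 value reached the 25th percentile (2.94). Calls needed a Benjamini-Hochberg adjusted p under 0.05 over all of these. Of the degrees of freedom 1 was residual and moderation added 6.18. The block was the line, from which both arrays of a pair come (r = 0.36 for their deviations from the condition means). Spread between lines and array noise cannot be told apart in these p values. The fit was tested on simulated data. Groups were described by counts and medians.

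The members, lists and tests were chosen with earlier results of these data known. Signals on every array are given for members past 2-fold in both lines, the 5 with the largest change in each direction, the largest and smallest of each role, and further members where a call or probe set needed them. Of other pathway genes, those past 2-fold in both lines are named, and others as stated. Alternatives were filters, normalizations, a floor, a pseudocount, other probe sets, no trend, no block, and leaving out arrays or a line.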

Additional observations from a re-analysis of the deposited data

Results flagged for a closer look

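Of the 40 members 4 had changes of opposite sign in the lines, higher after doxycycline in line 8534 and lower in line 8542. The change in line 8542 minus that in line 8534 (log2) was -2.27 for Rrp9, -0.94 for Rrs1, -0.32 for Imp4 and -0.31 for Nop14. Each line had 1 array per condition, so these differences were not tested. The change in line 8534 was at most 0.19 for each of the 4. Rrp9 had the lowest mean log2 value of the members, with signals of 12.6 to 57 units. The other probe set of Rrs1 was lower in both lines, with log2 changes of -0.35 and -0.81.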

How the results depend on the processing

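The count of 17 members called lower was between 14 and 19 under other filters, normalizations, low-signal settings and probe set choices. It was 0 without the intensity trend, 0 without the replicate block and 0 with each single array left out (treatment-only limma fit, in which a lone array is assumed to vary like the other condition), where 9 to 19 members had an unadjusted p under 0.05. The count of 14 other pathway genes was 0 in these same settings (8 to 21 at an unadjusted p under 0.05), 9 without a filter and 9 with quantile normalization, and 1 such gene was called higher with the second probe set. The count of 5 ribosomal protein genes was likewise 0 in these settings (1 to 9 at an unadjusted p under 0.05), 2 without a filter, 2 with quantile normalization, 8 with the second probe set and 10 with a filter at the median level. With a single line the count of members more than 2-fold lower was 4 (line 8534) or 13 (line 8542). Fbl lost the criterion of 2-fold in both lines with its second or plain _at probe set, and Nop58 lost it with the pseudocount. Nolc1 and Tcof1 met it with their second probe sets.

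Median log2 changes that moved by more than 1 SD of the medians of the lines were those of RNA polymerase I (-0.55 with the second probe set and -0.55 with a plain _at probe set, an alternative chosen after seeing the data), box C/D (-1.08 over the mean of probe sets, -1.02 with the second and -1.02 with the plain _at probe set, -1.23 to -1.36 with a line left out), general nucleolar proteins (-0.50 with quantile normalization, -0.83 over the mean of probe sets, -0.85 with the second, -0.84 with the plain _at, -0.79 to -0.67 with a line left out), ribosomal proteins (-0.11 with quantile normalization) and other pathway genes (-0.32 to -0.25 with a line left out). With a line left out the medians ranged from -1.06 to -0.77 for box H/ACA, from -0.74 to -0.43 for large subunit assembly and from -0.57 to -0.24 for small subunit assembly. Single genes changed sign with the mean over probe sets (Polr1a 0.032, Imp4 0.19, Wdr12 0.42, Nop16 0.35) or with the second probe set (Imp4 0.021, Bop1 -0.12, Nop16 1.61). The causes were not tested. With 1 array per line and condition, small changes and differences between lines are beyond what these data can test.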
